A study of Mus musculus with 8 samples.

Results

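The genes described here encode enzymes that methylate histone H3 at lysine 4 (H3K4) and 3 partner proteins of the MLL3 and MLL4 complexes. The 9 members are Kmt2a, Kmt2b, Kmt2c, Kmt2d, Setd1a and Setd1b, which encode methyltransferases, and Kdm6a, Paxip1 and Ncoa6, which encode the partners. A region was taken for a member when the deposited table names that gene as nearest and places the region at most 100 kb from its transcription start site (TSS). That rule found 71 of 112137 regions. Paxip1 had 19, Kmt2a 16, Kdm6a 11, Setd1b 7, Kmt2d and Ncoa6 5 each, Setd1a 4, and Kmt2b and Kmt2c 2 each. Just inside the limit lay Kdm6a regions at 92041 and 96327 bases, and just outside it a Kmt2c region at 115159 bases and a Kdm6a region at 132826 bases.

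The study measured acetylation of histone H3 at lysine 27 (H3K27ac) in embryonic stem cells of the mouse, by CUT&Tag. This method uses an antibody to bring a transposase to a chromatin mark, so that the DNA beside the mark is tagged and sequenced. Naive wild-type (WT) cells and naive cells lacking both MLL3 and MLL4 (labelled MLL3KO_MLL4KO, here DKO) were compared with formative WT and DKO cells, collected 63 hours after LIF2i was withdrawn. LIF2i is the cytokine LIF with a pair of kinase inhibitors, the medium that holds cells in the naive state. Each of the 4 groups had 2 libraries, cultured and prepared separately per the series' design text. WT cells were of the R1 line. The labels name no line for DKO cells and the number of clones is not given, so a difference between the genotypes cannot be told apart from a difference between lines. The question asked of these members is whether the genes for the remaining H3K4 methyltransferases and partners carry more H3K27ac, H3K4me1 or RNA when MLL3 and MLL4 are gone.

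Mammals have 6 methyltransferases of this family, and each works in a complex built on a shared core. SETD1A and SETD1B place most H3K4 trimethylation at active promoters, MLL1 (Kmt2a) and MLL2 (Kmt2b) act at selected CpG-rich promoters, and MLL3 (Kmt2c) and MLL4 (Kmt2d) place much of the monomethylation (H3K4me1) at enhancers. UTX (Kdm6a), a demethylase of H3K27, PTIP (Paxip1), an adaptor with BRCT domains, and NCOA6, a nuclear receptor coactivator, are found in the MLL3 and MLL4 complexes but not in the others. H3K27ac marks active promoters and enhancers and is placed by p300 and CBP, which MLL3 and MLL4 are known to help recruit.

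All H3K27ac levels below are the authors' pooled log2(value + 1), 1 value per group, and differences of them are log2 folds. The pooled values carry no SD and no n, so no difference that involves DKO cells has a replicate check and none has a p-value. The level falls steeply as a region gets wider, so levels were compared within a region and never between regions. Regions count as higher or lower from a log2 fold of 1 or more, a 2-fold difference. Of the 71 member regions, 70 were above 0 in all 4 groups and entered those counts. One comparison, formative WT against naive WT, also has the authors' DiffBind test over the replicate libraries, and "rose" and "fell" are used only where its adjusted p-value was under 0.05. The state labels of WT cells held at marker genes in that test. Of 115 regions of 8 naive pluripotency genes 68 fell and 6 rose, and of 62 regions of 5 formative genes 30 rose and 5 fell. DKO cells have no such test. Their pooled folds of formative against naive had gene medians of -1.32 at the naive and 0.86 at the formative genes, with -2.18 and 1.79 in WT. In formative DKO against WT these were 0.09 and -1.17, with -0.62 over all genes. Whether the genotypes differ in state was not tested. Regions near 3 fibroblast feeder genes (2 of 8 rose and 2 fell) and 3 primitive endoderm genes (2 of 7 rose and 0 fell) were present in every group. Their gene medians ran from 4.99 to 9.12 over the 4 groups, none was at 0, and their part in the results below was not tested.

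Sequences at the start sites come first because those regions gave the most uniform result. RefSeq promoters (build GRCm38.p6, whose chromosomes are those of mm10) were matched by symbol for 7 of the 9 members, and Kmt2b and Setd1b are only named. The 250 bases before the start of the 2 deleted genes and of Kdm6a are printed 5′ to 3′ on the transcribed strand, with every CG dinucleotide, the letters bound by CXXC-domain proteins when unmethylated, in capitals.
Kmt2c promoter, chr5:25498784-25499033, minus strand: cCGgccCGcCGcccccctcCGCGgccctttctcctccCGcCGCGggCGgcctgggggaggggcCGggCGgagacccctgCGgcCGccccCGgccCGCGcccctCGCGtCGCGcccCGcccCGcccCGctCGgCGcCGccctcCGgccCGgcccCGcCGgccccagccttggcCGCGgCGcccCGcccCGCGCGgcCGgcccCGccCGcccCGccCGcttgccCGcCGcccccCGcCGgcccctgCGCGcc
Kmt2d promoter, chr15:98871206-98871455, minus strand: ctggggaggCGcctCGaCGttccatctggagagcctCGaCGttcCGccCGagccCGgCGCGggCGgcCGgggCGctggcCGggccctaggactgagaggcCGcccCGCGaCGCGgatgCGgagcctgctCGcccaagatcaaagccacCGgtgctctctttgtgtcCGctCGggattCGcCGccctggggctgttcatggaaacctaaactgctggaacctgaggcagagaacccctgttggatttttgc
Kdm6a promoter, chrX:18162325-18162574, plus strand: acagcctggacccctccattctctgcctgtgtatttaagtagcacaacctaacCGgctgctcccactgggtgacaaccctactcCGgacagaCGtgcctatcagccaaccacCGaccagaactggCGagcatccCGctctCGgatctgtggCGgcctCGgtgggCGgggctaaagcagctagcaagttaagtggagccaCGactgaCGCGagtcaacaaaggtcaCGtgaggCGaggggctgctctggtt
These windows hold 48 CG dinucleotides for Kmt2c, 26 for Kmt2d and 15 for Kdm6a. Kmt2a had 29, Setd1a 25 and Paxip1 22. The Setd1a window (chr7:127777139-127777388) lies inside the gene, downstream of the start at 127776670 in the GENCODE M21 annotation. The median over 27025 RefSeq promoters cut to the same 250 bases was 6, with at least 1 in 91.7% of them and 20 or more in 17.7%. Ncoa6 was the exception with 1, in a window of 38.4% G and C. Its RefSeq start, which the file also uses, lies inside the gene in the GENCODE M21 annotation and had no acetylated region on it, whereas the region 32478 bases upstream, labelled intergenic in the file, holds the GENCODE start of Ncoa6 and 84.0 CG per 1000 bases. Counted over whole regions, the 7 of the 71 that lie nearest to the GENCODE start of their gene held 34.8 to 87.9 CG per 1000 bases, the highest in the Kmt2d region, which lies 211 bases from the start. The other 64, some of which hold the start of another transcript of their gene, had 0 to 40.0 with a median of 10.3.

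For each member the region nearest to its GENCODE start was then followed through the 4 groups. For Kmt2b and Kmt2c that region is assigned in the file to another gene, Mir3569 at chr7:30588514-30591255 and 4831440E17Rik at chr5:25498881-25500432. Neither is among the 71. They were added after values had been seen, because without them both genes would be described without their promoter. The Kmt2b region covers the start of the gene, and the Kmt2c region begins 98 bases upstream of it. The Setd1b region also holds the start of AI480526 and the Kmt2a region that of AC061963.1. The Kmt2d region holds the starts of 5730414N17Rik and Gm49437 and not that of Kmt2d. A promoter shared by a pair of genes cannot be credited to either.

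In formative cells, all 9 start-site regions had more H3K27ac in DKO than in WT, with log2 folds from 0.62 to 2.68 and a median of 0.98, and 4 of the 9 were at least 2-fold higher. That matches the general level at promoters. Of 9114 regions within 1000 bases of any TSS, 40.2% were at least 2-fold higher in formative DKO cells and 12% lower, and their median was 0.78. Above 0 lay 6752 of these regions in formative and 6706 in naive cells. In naive cells 7 of the 9 were above 0, the median was 0.52 and 2 were at least 2-fold higher, with 30.4% of TSS-proximal regions higher, 8.28% lower and a median of 0.56. The choice of scaling decides some of these signs. With the groups centred on the promoters of the whole table, Paxip1 turned to -0.16 in formative cells. In naive cells Kmt2a turned to -0.12, Kmt2b to -0.03, Kmt2d to -0.24 and Kdm6a to -0.06, leaving Setd1a, Setd1b and Ncoa6 above 0.

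Setd1a and Setd1b, which encode the catalytic subunits of the SET1 complexes, had the highest naive folds among the start-site regions, the Setd1b one being shared with AI480526. At Setd1a (chr7:127775682-127778789) the level was 7.61 in naive WT, 8.75 in naive DKO, 6.63 in formative WT and 8.16 in formative DKO. Both DKO groups stood above both WT groups, by 1.13 in naive and 1.53 in formative cells. Setd1b (chr5:123140817-123142416) had 7.84 in naive WT, 9.34 in naive DKO, 7.03 in formative WT and 8.65 in formative DKO. Here too both DKO values lay above both WT values, with folds of 1.50 and 1.62. These were the only start-site regions of the 9 with a fold of 1 or more in each state, and under the 4 other scalings or pseudocounts their folds stayed above 0, at 0.56 to 2.53. The share of all TSS-proximal regions with such folds in both states was not counted, so neither trait can be called particular to these genes.

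The genes of the MLL1 and MLL2 complexes moved less at their starts. Kmt2a (chr9:44880246-44883064) was at 7.28 in naive WT, 7.75 in naive DKO, 7.07 in formative WT and 7.97 in formative DKO. The Kmt2b start region was at 7.27, 7.82, 7.09 and 8.07 in the same order. In each, the WT values of the 2 states lay within 0.21 of one another and both DKO values were above them, by less than 1.

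The regions beside the starts of the 2 deleted genes were acetylated in DKO cells too, though neither covers its gene's start. The Kmt2c start region read 9.15 in naive WT, 8.99 in naive DKO, 6.35 in formative WT and 7.61 in formative DKO. It was lower in formative than in naive cells of either genotype, and the DKO fold was -0.16 in naive and 1.26 in formative cells, the former at 0.13 with median centring. Kmt2d (chr15:98871415-98872665), whose region begins 211 bases upstream of the gene, read 8.98, 9.32, 8.85 and 9.76 in that order. Its DKO values were the higher in each state, by 0.34 and 0.91.

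Among the partners, the Kdm6a start region (chrX:18161498-18164572) read 8.94 in naive WT, 9.46 in naive DKO, 7.64 in formative WT and 8.54 in formative DKO. Paxip1 (chr5:27789639-27794902) read 7.86, 7.78, 6.05 and 6.67 in that order. The Ncoa6 start region (chr2:155472380-155474142) read 8.38, 9.21, 6.11 and 8.80. Ncoa6 had the largest formative difference of the 9 start sites, 2.68, and formative WT stood far below the other 3 groups there.

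**Figure D1:**
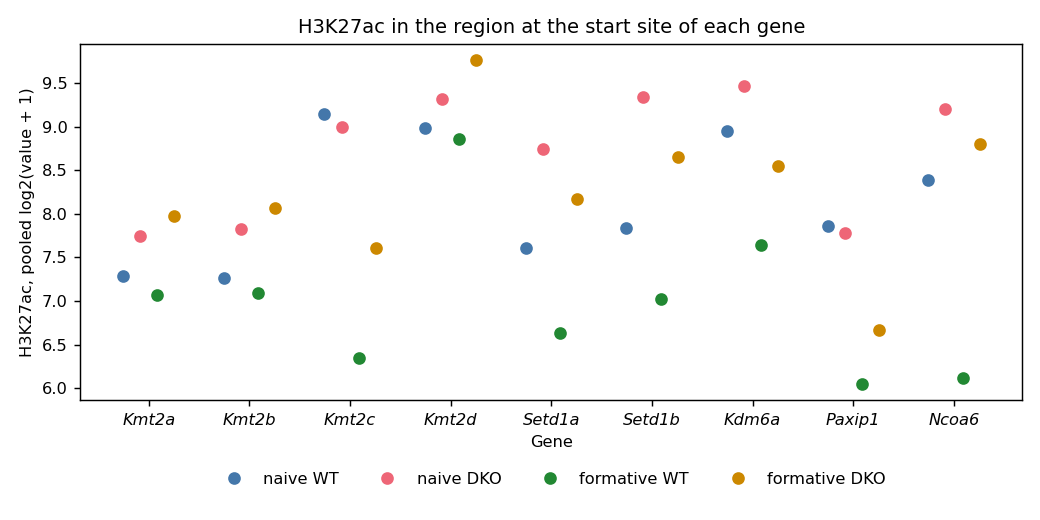
H3K27ac in the region nearest the GENCODE start of each of the 9 genes, as the authors' pooled log2(value + 1) on the vertical axis, with 1 point per group and no error because the values are pooled. In formative cells the DKO point lies above the WT point for all 9 genes, by 0.62 to 2.68, and for 6 genes (Kmt2a, Kmt2b, Kmt2d, Setd1a, Setd1b and Ncoa6) both DKO points lie above both WT points. The share of TSS-proximal regions in general with that order was not counted.

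On leaving the naive state, WT cells lost H3K27ac at 4 of these 9 start sites by the authors' test, which called 26.1% of the 9272 regions within 1000 bases of a TSS lower. In the authors' deposited table, the DiffBind log2 fold was -2.78 at Kmt2c (adjusted p = 1.35e-09), -1.31 at Kdm6a (adjusted p = 3.85e-07), -1.87 at Paxip1 (adjusted p = 7.99e-14) and -1.93 at Ncoa6 (adjusted p = 0.0004). At Kmt2a, Kmt2b, Kmt2d, Setd1a and Setd1b the same column of the authors' deposited table ran from -0.94 to -0.02, with adjusted p-values of 0.0614 to 0.989. By pooled values all 9 lay below 0 in WT (-2.80 to -0.13) and 4 were at least 2-fold lower. Of the 9114 TSS-proximal regions, 5446 lay below 0 and 27.3% were at least 2-fold lower, with a median of -0.33. With promoter centring Kmt2a, Kmt2b and Kmt2d turned to between 0.10 and 0.19. In DKO cells 6 of the 9 were below 0, and the range was -1.38 to 0.44. The pooled DKO values have no test, and whether the change differed between genotypes was not tested.

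H3K4me1 at the start sites was higher in DKO at all 9 genes in both states, as at most promoters. Of 9272 TSS-proximal regions, 8100 lay above 0 in naive and 8147 in formative cells. In the authors' deposited table the H3K4me1 log2 folds of DKO against WT ran from 0.50 at Kmt2b to 1.37 at Kmt2c in naive cells, with 2 of 9 at 1 or more. The authors' deposited table gives 0.63 at Kmt2b to 1.94 at Kmt2d in formative cells, with 5 of 9 at 1 or more. TSS-proximal regions in general had medians of 0.67 in each state, with 18.4% higher in naive and 19.6% higher in formative cells, by the same columns of the authors' deposited table. These folds come from libraries outside the series and have no test in the file.

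Over all their regions the members did not share a direction. In naive cells, 16 of the 70 member regions were at least 2-fold higher in DKO and 8 were lower, while over all 105643 regions 19.2% were higher and 26.3% lower. The member median was 0.19 and the median of all regions -0.10. In formative cells, 11 were higher and 12 lower, against 11.2% and 39.3% over all regions, with medians of 0.00 for members and -0.63 for all. Without the 7 member regions within 1000 bases of a TSS as the file places it, the other 63, which include the Ncoa6 start region, gave 14 higher and 8 lower in naive cells with a median of 0.14, and 9 higher and 12 lower in formative cells with a median of -0.23. All 96529 regions beyond that distance had medians of -0.18 and -0.73. In either direction, 24 of 70 naive and 23 of 70 formative member regions passed 2-fold, against 45.6% and 50.5% of all regions. Scaling moves the split. The share of past-threshold member regions that were higher was 66.7% as deposited in naive cells, 79.2% with median centring, 77.3% with quantile normalization and 21.7% with promoter centring. In formative cells it was 47.8% as deposited, and 87.1%, 83.8% and 8.57% with those settings in that order. Over all regions this share in naive cells was 42.2%, 55.45%, 49.9% and 20.8% in the same order, as deposited first. In formative cells it was 22.3%, 54.9%, 52.9% and 5.36% over all regions. Over those settings the median of all regions lay between -0.68 and 0.19 in the naive comparison and between -1.42 and 0.13 in the formative one.

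**Figure D2:**
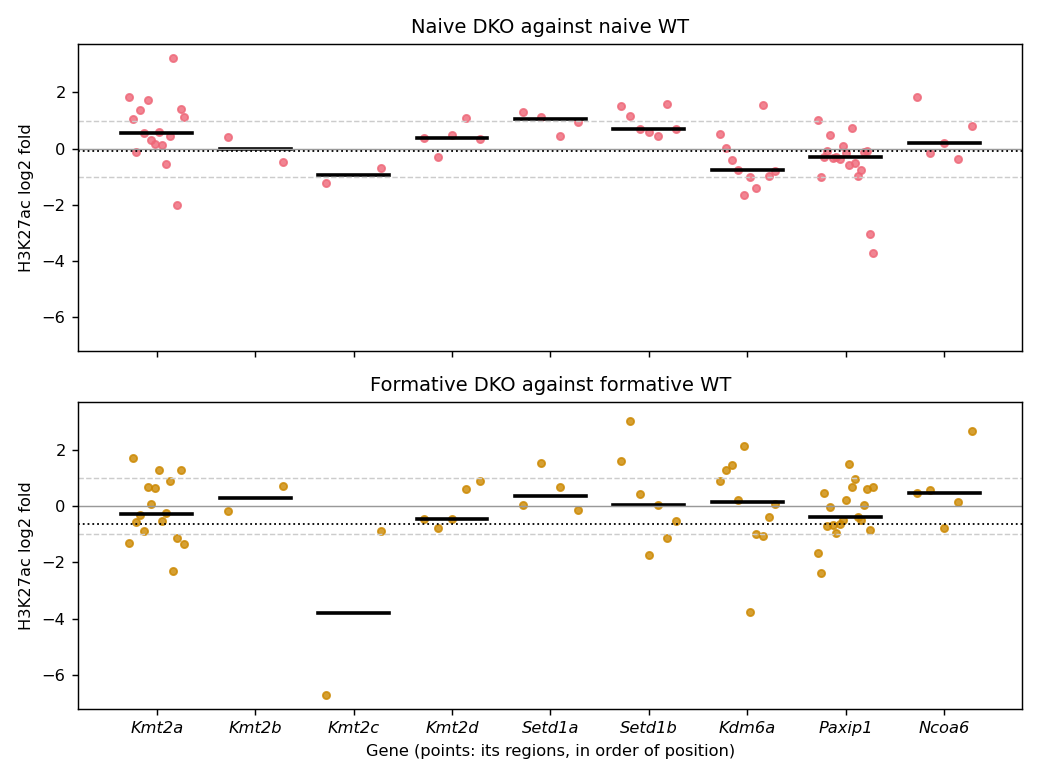
H3K27ac log2 fold of DKO against WT (vertical axis) for the 70 member regions above 0 in all groups, 1 point per region, by gene, with a black bar at the gene's median, dashed lines at 2-fold and a dotted line at the median of all regions. All 4 Setd1a and all 7 Setd1b points lie above 0 in naive cells, and the lowest formative point, at -6.72, belongs to Kmt2c.

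The regions of the SET1 genes all lay above 0 in naive cells, where 49529 of all 105643 regions lay above 0 and 56114 below. The 4 Setd1a regions had folds of 0.47 to 1.30 and a median of 1.05. The 7 Setd1b regions, all of which also overlap the gene Gm26745, had folds of 0.44 to 1.59 and a median of 0.68. Both medians stayed positive in every setting tried (Setd1a 0.47 to 1.34, Setd1b 0.11 to 0.97). In the formative state the same regions spread out. Setd1a ran from -0.12, in an exon at chr7:127783291-127786689, to 1.53 at its start, and Setd1b from -1.74, in an intron at chr5:123153053-123154344, to 3.05 in an intron at chr5:123143328-123144565. The last of these read 7.75 in naive WT, 8.91 in naive DKO, 5.58 in formative WT and 8.63 in formative DKO. Formative WT was the low group there. The highest naive Setd1a fold was in the 3′ end of the neighbouring gene Orai3 (chr7:127773962-127774660), which the file assigns to Setd1a. It read 8.52 in naive WT, 9.83 in naive DKO, 9.29 in formative WT and 9.32 in formative DKO.

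At Setd1b an intron and an exon gained acetylation on exit from the naive state and another intron lost it. In the authors' deposited table, DiffBind gave 2.75 at chr5:123158526-123159650 (adjusted p = 0.00983), 2.93 at chr5:123159764-123160938 (adjusted p = 5.63e-05) and -2.03 at the intron at chr5:123143328-123144565 (adjusted p = 0.0255). Setd1a had 1 region that rose, the exon at chr7:127783291-127786689, which overlaps the transcript Gm49388, at 1.07 in the authors' deposited table (adjusted p = 0.00702).

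Kmt2a, the gene for MLL1, had acetylation over 16 regions, 12 from its start through the gene body and 4 upstream. In naive cells 7 of the 16 were at least 2-fold higher in DKO and 1 was lower, against 19.2% and 26.3% of all regions. The gene median was 0.57, although promoter centring brought it to -0.01. The highest fold, 3.23, was at chr9:44885521-44886039, which lies 4491 bases upstream of the start. This region read 2.88 in naive WT, 6.11 in naive DKO, 9.47 in formative WT and 7.17 in formative DKO. Naive WT was close to the floor of the scale and formative WT was the highest, so the DKO values of the 2 states lay between the WT values. Lowest in naive cells was the region at chr9:44889306-44891855, at -2.01, which read 6.21 in naive WT, 4.20 in naive DKO, 6.80 in formative WT and 5.68 in formative DKO. It lies 9291 bases upstream and was lower in DKO in each state. In formative cells 3 Kmt2a regions were higher and 4 lower, against 11.2% and 39.3% of all regions. The Kmt2a folds ran from -2.30 at the first of these upstream regions to 1.70 at chr9:44845348-44846429 in the gene body.

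At Kmt2a, 4 of 16 regions rose and 1 fell when WT cells left the naive state, against 20.8% and 15.8% of all regions. The upstream region at chr9:44885521-44886039 rose by 5.83 in the DiffBind column of the authors' deposited table (adjusted p = 0.000595), and the upstream region at chr9:44896878-44898080 by 2.99 (adjusted p = 0.00215). The latter holds the start of Gm26249. A pair of introns that overlap the transcript Gm48314 also rose in the authors' deposited table, by 1.46 (chr9:44853850-44856993, adjusted p = 0.000864) and 1.91 (chr9:44859126-44860152, adjusted p = 0.0471). The region that fell, at chr9:44860627-44863810, had a DiffBind fold of -0.84 in the authors' deposited table (adjusted p = 0.0304). By pooled values 8 of 16 Kmt2a regions were at least 2-fold higher in formative WT and 0 were lower, against 38.1% and 18.9% of all regions. The WT median of 0.89 was positive in every setting (0.44 to 1.20). Naive DKO values for the 4 regions that rose all lay between the naive and formative WT values. Picking regions for a low naive and a high formative WT value favours that order. Its rate among all regions that rose was not counted, so nothing about DKO cells is drawn from it.

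**Figure D3:**
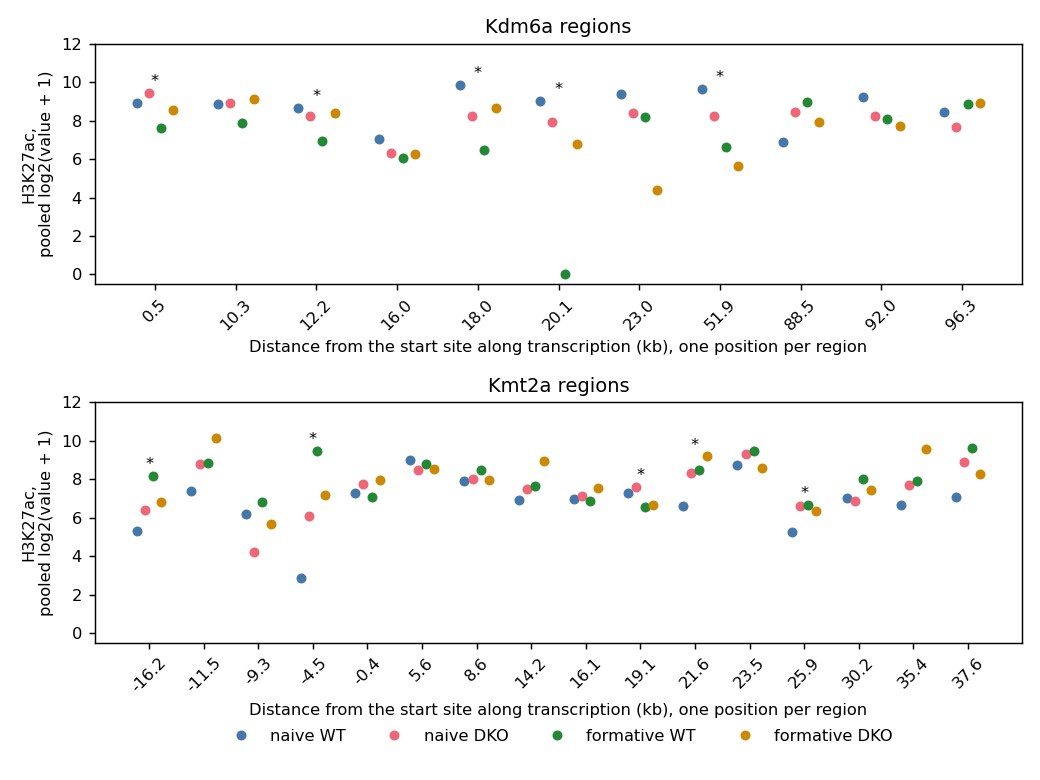
Pooled H3K27ac log2(value + 1) in the 4 groups for every Kdm6a region (top) and Kmt2a region (bottom), placed in order of distance from the start site and marked with a star where the authors' DiffBind adjusted p for formative against naive WT was under 0.05. The starred Kdm6a regions are all lower in formative WT, with 1 at 0, and 4 of the 5 starred Kmt2a regions are higher in formative WT.

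Kdm6a, the X-linked gene for UTX, went the other way. Of its 11 regions, 5 fell and 0 rose in formative WT, against 15.8% and 20.8% of all regions. By pooled values 8 of the 10 above 0 in all groups were at least 2-fold lower and 1 was higher, against 18.9% and 38.1% of all regions. The Kdm6a median of -1.18 stayed negative in every setting (-1.77 to -0.87). The steepest was the intron at chrX:18182153-18183196, 20099 bases into the gene. It read 9.05 in naive WT, 7.96 in naive DKO and 6.82 in formative DKO, and is listed at 0 in formative WT, so no fold is given for it against that group. The authors' deposited table lists a DiffBind log2 fold of -7.36 for this intron (adjusted p = 5.53e-09). A neighbouring intron at chrX:18180084-18181029 read 9.88 in naive WT, 8.23 in naive DKO, 6.50 in formative WT and 8.66 in formative DKO, with a DiffBind fold of -3.39 in the authors' deposited table (adjusted p = 9.01e-09). In both introns formative DKO had more acetylation than formative WT. Both were named for a steep fall in WT, which favours that order. The other 2 that fell, besides the start region, were at chrX:18174089-18175561 (DiffBind -1.69, adjusted p = 0.000333) and chrX:18214118-18214767 (-2.07, adjusted p = 0.0224) in the authors' deposited table.

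In naive DKO cells 7 of 10 Kdm6a regions were below 0 against WT, as were 56114 of all 105643 regions. The Kdm6a median was -0.77, and this sign held in every setting (-1.35 to -0.42). Of the 10, 3 were at least 2-fold lower and 1 was higher, against 26.3% and 19.2% of all regions. The lowest of the 10 was the intron at chrX:18180084-18181029 at -1.64, and the highest the exon at chrX:18250815-18251383 at 1.57. The formative state gave 3 higher and 3 lower, against 11.2% and 39.3% of all regions. The Kdm6a median there was 0.16, and its sign did not hold in every setting (-0.63 to 1.28). Formative extremes were 2.16 in that same intron and -3.77 at chrX:18185173-18186020. The latter read 9.41 in naive WT, 8.39 in naive DKO, 8.19 in formative WT and 4.42 in formative DKO, so formative DKO stood alone.

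Paxip1 carried the most regions and 2 of the clearest changes. Both lie upstream of the gene on chromosome 5, outside it. The nearer, at chr5:27808480-27810579, 17979 bases upstream, read 8.91 in naive WT, 5.87 in naive DKO, 5.49 in formative WT and 4.63 in formative DKO. The farther and wider one, at chr5:27811295-27818156, 23175 bases upstream and over the start of the transcript Gm43433, read 8.45 in naive WT, 4.75 in naive DKO, 2.78 in formative WT and 3.47 in formative DKO. In both, naive WT alone was high. Both fell on exit from the naive state, with DiffBind log2 folds of -3.48 (adjusted p = 4.19e-18) and -5.89 (adjusted p = 1.22e-83) in the authors' deposited table. Naive DKO was below naive WT by pooled folds of -3.04 and -3.71, the lowest of the 70 member regions in that comparison. H3K4me1 was lower there too in naive DKO, at -1.75 and -1.65 in the authors' deposited table. The assignment to Paxip1 is by nearest start in the file and does not show which gene either region acts on.

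The wider region holds 4 copies of the octamer ATTTGCAT, the motif bound by POU factors such as OCT4, and is shown for that reason, each copy with 10 bases on either side, minus strand, octamer in capitals.
Octamer at chr5:27812213-27812240: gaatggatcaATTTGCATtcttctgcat
Octamer at chr5:27812665-27812692: ggtctttttgATTTGCATttctctggtg
Octamer at chr5:27814415-27814442: aatggttttgATTTGCATttccctgaca
Octamer at chr5:27815782-27815809: aatggttttgATTTGCATttccctgaca
The last pair of 28-base stretches are identical in sequence, so these copies are not independent. Searching both strands of the genome sequence of all 783 regions that are 6000 to 8000 bases wide, 25.4% hold at least 1 such octamer and 0.255% hold 4 or more. The cut of 4 is this region's own count, and the region is itself among the 2 of 783 that reach it. That share is therefore no test. The region holds 0 copies of the ESRRB motif TCAAGGTCA, which 24.5% of those 783 hold. A letter match is a description of the sequence and does not show binding.

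Most Paxip1 regions lie inside the gene. In naive cells 15 of all 19 were below 0 in DKO, as were 56114 of the 105643 regions of the whole table. The Paxip1 median was -0.31 and stayed negative in every setting (-0.88 to -0.02). Of the 19, 3 were at least 2-fold lower and 1 higher, against 26.3% and 19.2% of all regions. In formative cells 2 were lower and 1 higher, against 39.3% and 11.2% of all regions. The Paxip1 extremes there were -2.38 in the intron at chr5:27744739-27745411 and 1.49 in the gene body at chr5:27772100-27773636. The first read 9.53 in naive WT, 8.51 in naive DKO, 8.92 in formative WT and 6.53 in formative DKO. The second read 8.45, 7.88, 6.76 and 8.24 in that order, with formative WT alone low, and it fell in WT, at -1.71 in the authors' deposited table (adjusted p = 0.00668). Of all 19, 5 fell and 0 rose by the authors' test, against 15.8% and 20.8% of all regions. The one Paxip1 region that fell and is not yet named was the intron at chr5:27780185-27781085, with a DiffBind fold of -2.04 in the authors' deposited table (adjusted p = 0.0348).

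**Figure D4:**
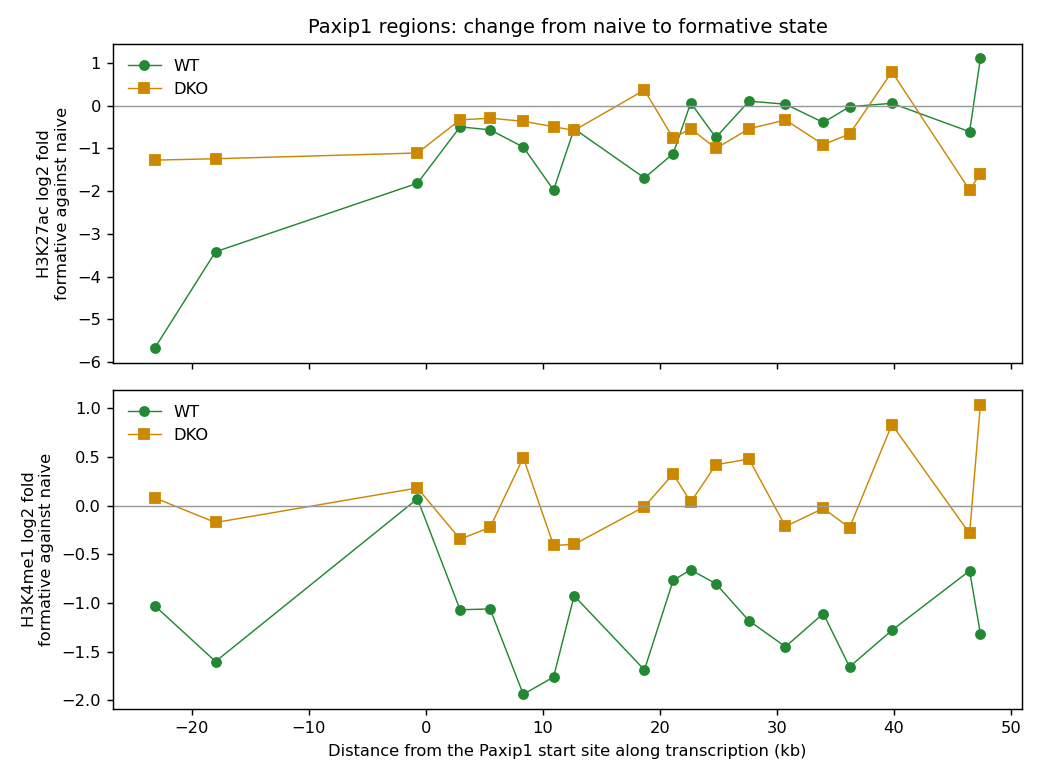
Log2 fold of formative against naive cells for the 19 Paxip1 regions by distance from the start site, for H3K27ac (top) and H3K4me1 (bottom, the authors' deposited folds), in WT and DKO. The WT H3K27ac folds reach -5.67 upstream of the gene, and the WT H3K4me1 folds lie below 0 in 18 of 19 regions while the DKO folds lie on both sides of 0.

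The 2 deleted genes had few regions under the rule. Both Kmt2c regions, introns at chr5:25478535-25479038 and chr5:25486550-25487638, were lower in DKO in each state, and the gene median was negative in every setting for both. The first read 8.80 in naive WT, 7.57 in naive DKO, 8.53 in formative WT and 1.82 in formative DKO, so its formative fold of -6.72 rests on 1 pooled value near the floor. The second read 7.67, 6.99, 7.87 and 7.00 in that order, with folds of -0.68 and -0.88. Kmt2d had 1 of 5 regions past 2-fold in naive cells, the intron at chr15:98868046-98870218 at 1.10, and 0 in formative cells, where folds ran from -0.77 to 0.91. Of all regions, 45.6% passed 2-fold in naive and 50.5% in formative cells. On exit from the naive state the exon at chr15:98861151-98866984 rose in WT, by 0.66 in the authors' deposited table (adjusted p = 0.0165).

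Kmt2b, the gene for MLL2, had 0 of 2 regions past 2-fold in H3K27ac in either state, with folds of -0.47 and 0.43 in naive and of -0.17 and 0.73 in formative cells. Ncoa6 had 1 of 5 past 2-fold in each state. In naive cells that was the intron at chr2:155431077-155432272 at 1.83, which read 5.77 in naive WT, 7.60 in naive DKO, 7.30 in formative WT and 7.77 in formative DKO, and in formative cells it was the start region. The lowest formative Ncoa6 fold was -0.77, at chr2:155445776-155446598. Beside these counts, 45.6% of all regions passed 2-fold in naive and 50.5% in formative cells.

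By the authors' DiffBind test, 21 of the 71 member regions changed in WT between the states, 8 rising and 13 falling. Over the authors' deposited table as a whole 36.6% of regions changed, 20.8% rising and 15.8% falling. Of the 13 that fell, 5 were at Kdm6a and 5 at Paxip1, and of the 8 that rose, 4 were at Kmt2a and 2 at Setd1b. Pooled values gave 16 member regions at least 2-fold higher and 16 lower in formative WT (38.1% and 18.9% of all regions), and 7 higher and 9 lower in formative DKO against naive DKO (16.6% and 17.9%). In WT the share of higher among those past 2-fold was 50% as deposited, 30.6% with median centring, 27.8% with quantile normalization and 66.7% with promoter centring. In DKO it stayed between 43.8% and 53.3% under the same settings. Over all regions the share was 66.9%, 51.9%, 50.8% and 75.3% in WT in that order, and between 48.2% and 57.9% in DKO. The WT and DKO comparisons with formative cells use groups that the DKO against WT folds also use, so they are not separate evidence.

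H3K4me1 was then read over the member regions. For naive DKO against WT the authors' deposited table puts 2 of 71 at least 2-fold higher and 10 lower (5.03% and 18.7% of all regions). The naive split depends on the scaling: centred on the median of all regions it was 9 higher and 6 lower, so the share of higher went from 16.7% to 60%. Centring moves every region by the same amount, and the split of all regions after it was not counted. In formative cells, by the authors' deposited table, 15 were higher and 5 lower (10.5% and 16% of all regions), with a member median of 0.34 against -0.02 for all, and centring gave 16 higher and 5 lower. Paxip1 supplied 8 of the 15, Setd1a and Kmt2b 2 each, and Kmt2d, Setd1b and Ncoa6 1 each. Both Kmt2b regions were among them, at 1.18 and 1.00 in the authors' deposited table, while their naive folds were 0.15 and 0.25.

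H3K4me1 along Paxip1 was lower in formative than in naive WT. By the authors' deposited table, 13 of its 19 regions were at least 2-fold lower in formative than naive WT, with a median of -1.11, and 0 were higher. In DKO, by the authors' deposited table, 0 were lower and 1 was higher, with a median of -0.01. Over all regions of the authors' deposited table, 15.5% were lower in WT and 2.93% were lower in DKO. At all members together the authors' deposited table gave 2 higher and 18 lower in WT and 2 higher and 2 lower in DKO, with 5.88% and 2.75% of all regions higher. The lowest Paxip1 fold in WT was -1.94, in the gene body at chr5:27782460-27783989, where the formative DKO against WT fold was 1.77, both in the authors' deposited table. Whether the 2 genotypes differ in this change was not tested.

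In DKO against WT, the authors' deposited table gives Kdm6a an H3K4me1 median of -0.45 in naive cells, with 2 of 11 regions at least 2-fold lower and 1 higher, at 1.29. Paxip1 was close to it in that state, with a median of -0.56 and 5 of 19 lower by the authors' deposited table. In formative cells the authors' deposited table has Kdm6a at a median of -0.72, with 2 lower and 0 higher, and Paxip1 at 0.70, with 0 lower and 8 higher. The difference between the genes was not tested. Of all regions in the authors' deposited table, 18.7% were lower and 5.03% higher in naive cells, and 16% and 10.5% in formative cells. The lowest value, -2.99 in the authors' deposited table, was at the exon at chrX:18250815-18251383 in formative cells. Kmt2a regions had medians near 0 in the authors' deposited table, 0.04 in naive and 0.16 in formative cells, with 2 of 16 lower and 0 higher in each.

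RNA folds are given for 4 of the 9 members, Kmt2c, Kmt2d, Paxip1 and Ncoa6, from libraries outside the series and without a p-value in the file. For Kmt2a, Kmt2b, Setd1a, Setd1b and Kdm6a RNA was not analysed here, so H3K27ac at those genes has no RNA value beside it. A gene was called at a log2 fold of 0.5 or more. Besides DKO, the RNA columns name a genotype dCD, in which both enzymes are catalytically dead, and a genotype CKO that the sources used here do not spell out.

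The transcripts of both deleted genes were lower in DKO cells. Kmt2c RNA was at -1.15 in naive and -0.91 in formative DKO against WT in the authors' deposited table. Kmt2d RNA was at -0.72 and -0.84 in the same columns of the authors' deposited table. In CKO cells the authors' deposited table has Kmt2c at -1.06 naive and -0.95 formative, and Kmt2d at -0.01 and -0.49. In dCD cells it was Kmt2d that was lower, at -0.81 in the formative state (-0.07 naive), while Kmt2c was at 0.47 and -0.07, by the authors' deposited table. Transcript can remain from a deleted gene, and these folds do not measure protein.

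The 2 partners with a value showed no RNA fold of 0.5 or more in DKO cells. Paxip1 was at -0.15 naive and -0.05 formative in DKO, 0.25 and -0.24 in CKO, and 0.38 and -0.07 in dCD, in the authors' deposited table. From naive to formative, the authors' deposited table lists Paxip1 RNA at 0.13 for WT and 0.23 for DKO. Ncoa6 was at -0.36 naive and 0.26 formative in DKO, -0.54 and -0.43 in CKO, and -0.31 and -0.37 in dCD, in the authors' deposited table. On exit from the naive state Ncoa6 RNA was lower in every genotype of the authors' deposited table, at -1.13 in WT, -1.03 in CKO, -0.52 in DKO and -1.19 in dCD.

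Counted over the 4 genes in the authors' deposited table, 0 were higher and 2 lower in naive DKO against WT (22% of 9781 genes were higher and 21.8% lower), and 0 higher and 2 lower in formative DKO (19.3% and 13.2%). The 2 were the deleted genes each time. For CKO the authors' deposited table gave 0 higher and 2 lower in naive cells (13.8% and 13.6%) and 0 higher and 1 lower in formative cells (14.4% and 14.3%). For dCD the authors' deposited table gave 0 higher and 0 lower in naive cells (25.2% and 14.3%) and 0 higher and 1 lower in formative cells (16.6% and 13.6%). Between states, Ncoa6 was the gene below -0.5 in WT, CKO and DKO, and in dCD Kmt2c joined it at -0.93 in the authors' deposited table. All genes with a value had 19.8%, 19.5%, 13.1% and 20.4% lower in WT, CKO, DKO and dCD in the authors' deposited table, and 30.7%, 30.3%, 32.8% and 25.8% higher.

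**Figure D5:**
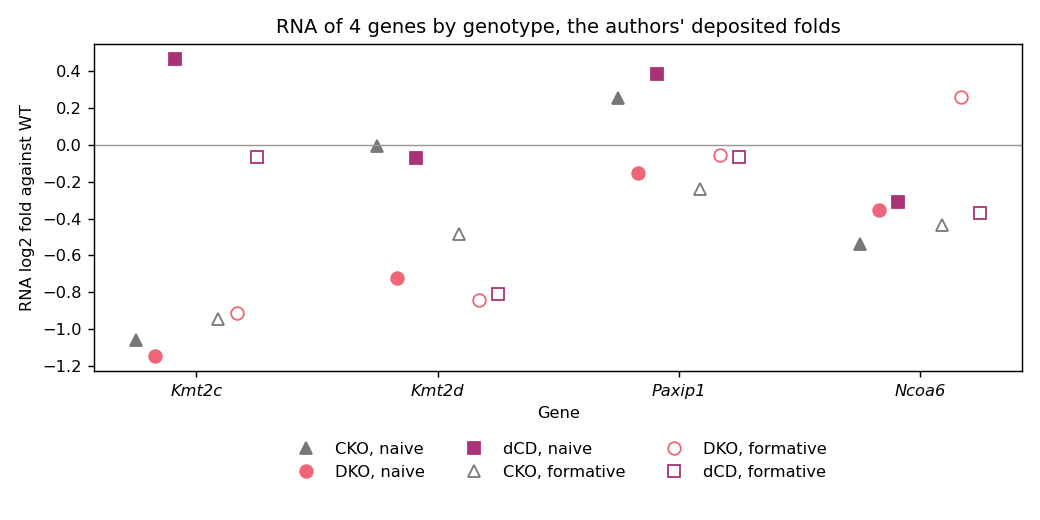
RNA log2 fold against WT for the 4 members with a value, from the authors' deposited table, by genotype (marker shape) and state (filled for naive, open for formative), with no error given in the file. Kmt2c in CKO and DKO lies between -1.15 and -0.91, and the Paxip1 folds lie between -0.24 and 0.38.

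The wider pathway was taken as 27 genes for shared core subunits, other subunits, H3K4 demethylases, acetyltransferases, other H3K4 methyltransferases and the H3K27 demethylase of Kdm6b. Of these, 26 had regions. By gene medians of H3K27ac, 5 of the 26 were at least 2-fold higher and 3 lower in naive DKO, against 14.2% and 20.0% of 18201 genes. Highest was Pagr1a, the gene for another subunit of the MLL3 and MLL4 complexes, at 2.18 over 2 regions, and lowest Smyd1, which encodes a muscle-expressed lysine methyltransferase, at -2.82 over 7 regions. In formative DKO 2 were higher and 1 lower (7.54% and 37.4% of genes), with Prdm9 at 1.58 in 1 region and Smyd1 again lowest at -1.99. For RNA, 2 of the 21 pathway genes with a value were higher and 4 lower in naive DKO, with Setd7 at 1.62 and Smyd1 at -4.75 as the extremes in the authors' deposited table. In formative DKO 2 were higher and 0 lower, Ash2l, a core subunit, highest at 0.69 in the authors' deposited table.

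For likeness of pattern, each gene's median H3K27ac in the 4 groups was centred on its own mean, and genes with at least 3 regions were ranked by Euclidean distance over those 4 values. Dennd2a (0.03), Tmem86b (0.04) and Akap5 (0.05) were nearest to Kmt2a, Eif4e (0.04), Gng5 (0.06) and Gm5176 (0.08) to Setd1a, and Mea1 (0.03), Coq6 (0.07) and Mir6951 (0.07) to Setd1b. Ubr3 (0.07), Rfwd3 (0.08) and Washc4 (0.12) were nearest to Kdm6a, and Ndufb4 (0.09), Rcor2 (0.11) and Sult3a2 (0.11) to Paxip1. Kmt2b was nearest to Frs2 (0.04), Kmt2d to Mir6417 (0.04), Ncoa6 to Abcf1 (0.03) and Kmt2c to Tcerg1l (0.64), which is far from it by comparison. With 4 pooled values per gene such a distance describes the values and carries no test.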

How the data were processed

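H3K27ac was measured by CUT&Tag in 8 libraries, 2 for each of 4 groups, grouped by the sample titles. Reads were handled with Bowtie2, Trim Galore, deepTools, SEACR and DiffBind on build mm10, per the submitters' processing notes, which give no versions or roles here; how groups were scaled is not stated. A single table of 112137 regions and 47 columns was deposited by the authors, with pooled H3K27ac values per group as log2(value + 1), log2 folds of H3K4me1 and of RNA from libraries outside the series, and DiffBind log2 concentrations, log2 folds, p-values and adjusted p-values for formative against naive WT. Distances and widths in bases, deposited by the authors, served to choose regions. The 12 columns of H3K4me1 and RNA levels were not used. Depth per library is unknown, so no interval is given.

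Log2 folds were differences of pooled values, called at 1 (H3K27ac, H3K4me1) or 0.5 (RNA) over all regions or genes. The planned test over single libraries could not be made on pooled values. Members and lists were chosen with earlier results of these data known. Per member, the region nearest the start and the regions with the highest and lowest folds were named; other regions were summarised. Kmt2b's and Kmt2c's start regions, and the concentration filter of at least 6, were added after values were seen. The calling step was checked on input with known folds (Python 3.11.15, pandas 2.3.3, numpy 2.4.6).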

Additional observations from a re-analysis of the deposited data

Results flagged for a closer look

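In 7 of the 70 member regions (10%, against 8.88% of all 105643 regions) the H3K27ac difference of DKO against WT passed 2-fold in opposite directions in the 2 states. Values are pooled, so the difference between states was not tested. At Kmt2a the formative minus naive difference was -3.15 at chr9:44843320-44843967 (1.84 naive, -1.31 formative), -5.53 at chr9:44885521-44886039 (3.23, -2.30) and -2.46 at chr9:44896878-44898080 (1.13, -1.33). At Setd1b it was -2.73 at chr5:123158526-123159650 (1.59, -1.14). At Kdm6a it was 3.80 at chrX:18180084-18181029 (-1.64, 2.16) and -2.62 at chrX:18250815-18251383 (1.57, -1.05). At Paxip1 it was -2.69 at chr5:27743814-27744490 (1.02, -1.67). The lower of the 2 WT concentrations in the authors' deposited table, a log2 of normalized reads, was -0.41 to 4.96 in these regions. Its part in the differences was not tested.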

How the results depend on the processing

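No paired analysis was possible because the table holds 1 pooled value per group, and leaving out each replicate was not run for the same reason. Counts of member regions past the threshold moved with the fold set as threshold and with filters, which test fewer regions. At a log2 fold of 0.5 the H3K27ac counts were 43 (naive DKO against WT), 49 (formative DKO against WT), 49 (formative against naive WT) and 37 (formative against naive DKO), and at a log2 fold of 2 they were 4, 7, 12 and 3. Within 20 kb of the TSS they were 14, 15, 19 and 8, and with a DiffBind concentration of at least 6 in both WT groups, chosen after seeing the data, 5, 3, 7 and 4. Above the median of the mean log2 value, naive DKO gave 15, the WT comparison 19 and the DKO comparison 9. For formative DKO, promoter centring gave 35 (3 higher, 32 lower) and quantile normalization 37 (31 higher, 6 lower), where the deposited scaling gave 23; the cause was not tested. For H3K4me1, a log2 fold of 0.5 gave 34 in naive and 45 in formative cells, and 20 kb gave 5 and 13. At an RNA log2 fold of 1, naive CKO and naive DKO each had 1 gene, and formative CKO, DKO and dCD had 0. The DiffBind count kept within 1.5 times of 21 in its alternatives. Of 180 gene medians recomputed, 18 moved by at least the SD over that gene's regions. That count does not follow signs. In formative DKO against WT, the median of every member but Kmt2c took both signs over the settings. For Setd1a it ran from -0.42 to 1.25, for Kdm6a from -0.63 to 1.28 and for Paxip1 from -1.16 to 0.63. Some medians in the other comparisons also changed sign. Depth is unknown, so regions near the floor, such as the Kmt2c intron at 1.82, have unknown precision.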
